A study of Mus musculus with 12 samples.

Results

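The complement system was read in RNA-seq of mouse cortex through 9 genes taken by symbol from the deposited count table: the C1q chains C1qa, C1qb and C1qc, the components C3 and C4b, the receptors C3ar1, C5ar1 and Itgam, and the inhibitor Serping1. They are 9 of the 27179 genes in the table, and all 9 were among the 15298 genes that passed the filter on low counts. The study compared mice null for the progranulin gene Grn, such mice that also carry a humanized mutant allele, and wild types. The KO group held 4 libraries of genotype Grn-/- from animals of 282 to 308 days, 2 of them labelled female. The MUT group held 4 libraries of genotype Grn-/-;GRNmEx5 from animals of 272 to 309 days, 3 of them labelled female. Both groups were therefore Grn-null by genotype label, and MUT added a humanized allele that the series title describes as a pathogenic GRN deletion. The WT group held 4 libraries of genotype Grn+/+, 1 labelled female, with 1 library at 287 days and 3 at 375 days, so that age and genotype overlap only in part. Reads of human GRN were not analysed here, and nothing in the labels ties the animals of different groups to one litter or day. Beyond age and sex, the labels do not say whether the libraries of a group came from separate animals.

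Complement is a cascade of plasma and tissue proteins that tags surfaces for removal. In the classical pathway C1q, a bundle of A, B and C chains, binds a surface and activates the proteases C1r and C1s, which cleave C4 and C2. The enzyme so formed cleaves C3, whose fragments are bound by receptors such as CR3 (Itgam with Itgb2) or signal through the anaphylatoxin receptor C3aR (C3ar1), while C5aR1 (C5ar1) answers the C5a fragment and C1 inhibitor (Serping1) shuts the first proteases down. In brain, C1q is made mainly by microglia and C4 largely by astrocytes and other glia, and in Grn-/- mice complement is known for its part in the removal of inhibitory synapses by microglia.

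The libraries held 16381221 to 20782195 counts. Levels are given as CPM, each library's counts scaled to a common depth by the trimmed mean of M values (TMM), and between genes as RPKM, which also divides by exon length. Fold changes are log2 values from edgeR's quasi-likelihood test with its standard error (SE), adjusted for labelled sex, and a gene was called when its Benjamini-Hochberg adjusted p over all 15298 genes was under 0.05. Mouse Grn had 12.9, 10.8, 13.4 and 14.0 CPM in KO, 11.5, 13.8, 13.3 and 15.3 CPM in MUT, and 57.2, 59.95, 57.6 and 57.1 CPM in WT. Every library thus matched its label as Grn-null or wild type. Grn reads remained in both null groups, at a fitted 0.217-fold of WT in KO and 0.226-fold in MUT. Mouse Grn cannot tell KO from MUT, so the labels of these groups were not checked against each other. The sex labels did not match: libraries labelled female held 1 to 19 Xist reads and 1156 to 1654 reads of the Y-linked gene Ddx3y, while those labelled male held 9390 to 12900 Xist reads and 0 to 4 Ddx3y reads. The labels ran opposite to these genes in all 12 libraries, and the sex term divides the libraries the same way under either reading. Cortical excitatory neuron markers were abundant throughout, at 5800 to 6600 summed CPM in KO, 5420 to 6590 in MUT and 6340 to 8290 in WT for 8 markers. Markers of neighbouring tissue were uneven. The 10 choroid plexus markers summed to 2030 CPM in KO replicate 3, 1430 in MUT replicate 1 and 684 in WT replicate 4, against 10.7 to 56.1 in the other 9 libraries. The 11 striatal neuron markers summed to 245 to 404 CPM in KO, 261 to 343 in MUT, and 284, 591, 1050 and 2030 in WT replicates 1 to 4. By list, edgeR called 0 of 8 cortical, 0 of 8 tested choroid plexus and 0 of 11 striatal markers in either null group (led by Camk2a, Ttr and Pde10a), with median log2 fold changes of -0.08, -0.39 and -1.53 in KO and -0.14, -0.79 and -1.64 in MUT. An unadjusted p under 0.05 was reached by 2, 0 and 9 of them in KO and by 1, 0 and 8 in MUT, and DESeq2 called 4 striatal markers in KO against WT. Over all genes tested, 17.6% in KO and 10.9% in MUT had an unadjusted edgeR p under 0.05 against WT. These shares also belong beside the counts of the gene lists below.

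Of the 9 genes, 2 were called in KO against WT, C1qa and C4b, and both were higher in KO. The fit used edgeR's robust prior, which was chosen after the data were seen. Without that prior C4b alone was called, with C1qa at an edgeR adjusted p of 0.052. The median log2 fold change of the 9 was 0.23, against 0.00 over all genes tested, and 7 of the 9 were above 0. Over all 15298 genes 0.490% were called in this comparison and 0.144% were called higher. The same 2 genes were the only ones of the 9 whose KO libraries lay wholly above the WT libraries, a pattern that 4.29% of all genes showed (4.82% lay wholly below). By unadjusted p under 0.05 the count was 5 of 9, against 17.6% of all genes, and the 3 added genes were C1qb, C1qc and C3ar1. In MUT against WT none of the 9 was called by edgeR, 5 had an unadjusted p under 0.05 against 10.9% of all genes, DESeq2 called 1 of them (C4b) and limma-voom called 0. Over all genes 0.0131% were called in that comparison. The median of the 9 was 0.26 against 0.00 over all genes, and C1qb and C4b were the genes whose MUT libraries lay wholly above WT, as 3.37% of all genes did (3.72% lay wholly below). KO and MUT were set against the same 4 WT libraries, so the 2 comparisons are not independent of each other.

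**Figure D1:**
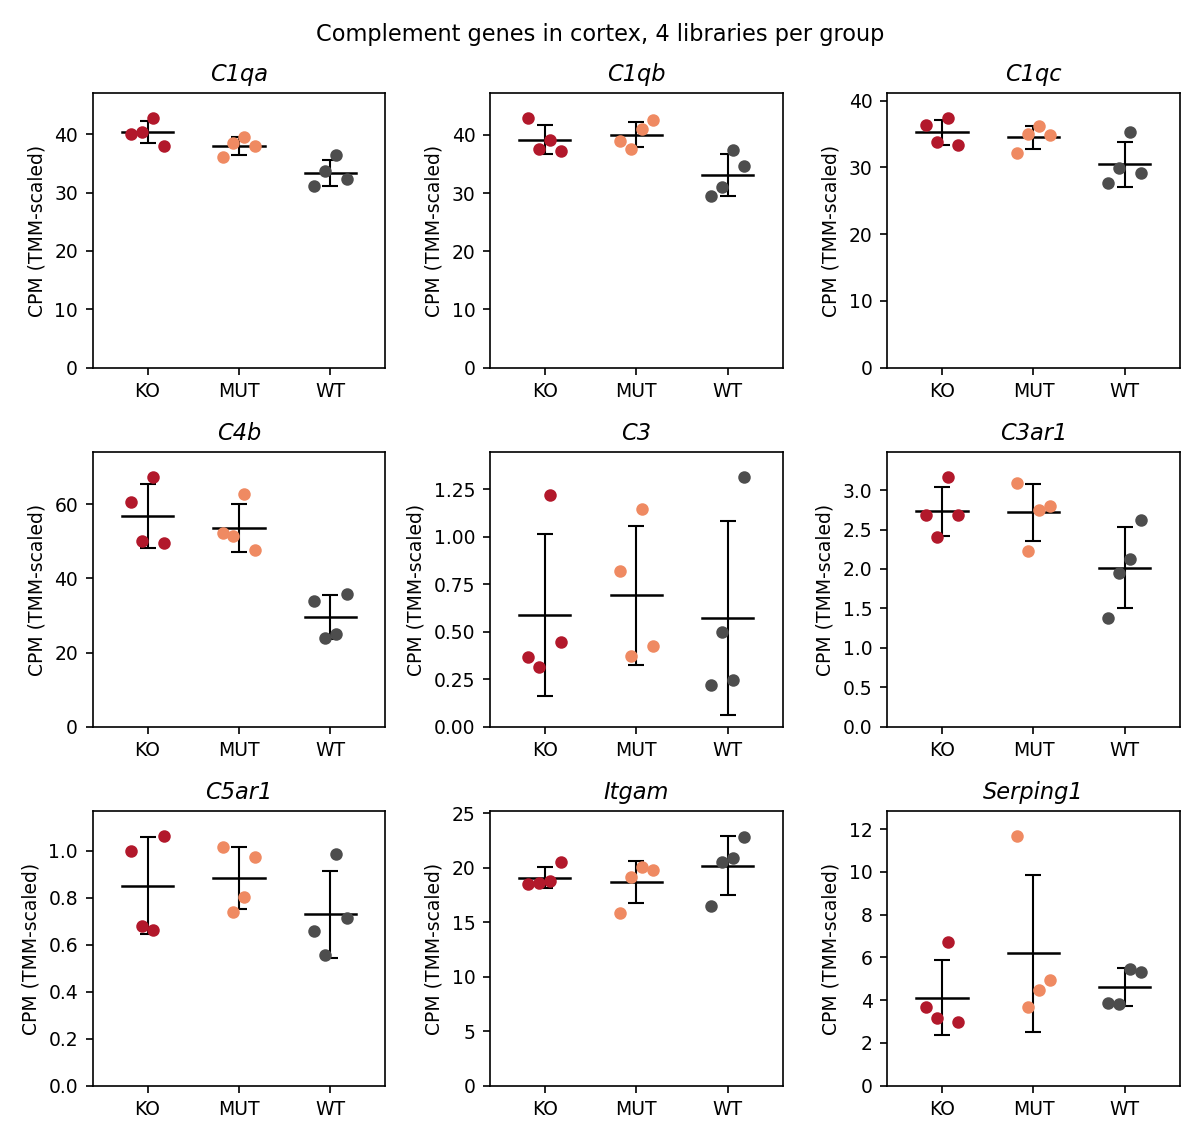
CPM of the 9 complement genes (y axis, TMM-scaled, starting at 0) in the 4 KO, 4 MUT and 4 WT libraries. Points are single libraries, and the bar and whiskers are the mean and SD of the group. C4b lies between 47.8 and 67.3 CPM in KO and MUT and between 24.1 and 35.7 CPM in WT, and the C1q genes show a smaller step.

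**Figure D2:**
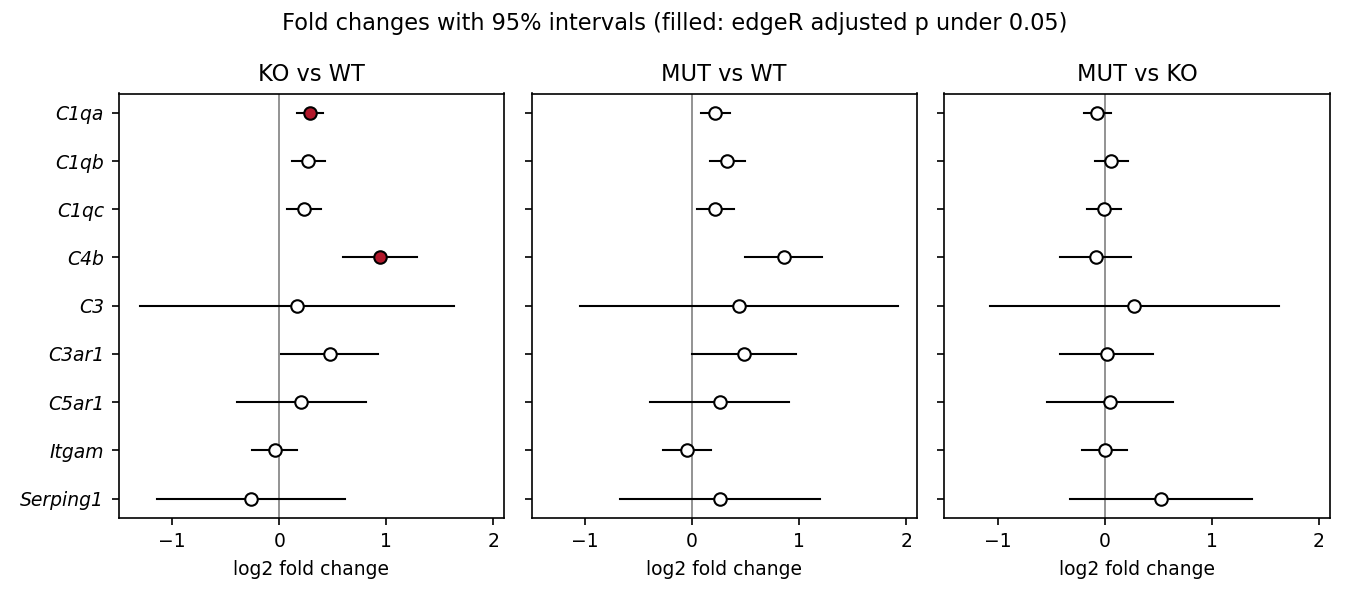
Log2 fold changes (x axis) of the 9 genes for the contrasts KO vs WT, MUT vs WT and MUT vs KO (left to right), with 95% intervals from the edgeR fit. Filled points are called at an adjusted p under 0.05. These are C1qa at 0.29 and C4b at 0.94 in KO against WT.

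The 3 C1q chains were the most abundant of the 9 genes per length. C1qb averaged 35.3 ± 3.88 RPKM, C1qa 34.4 ± 3.22 RPKM and C1qc 31.7 ± 2.95 RPKM over the 12 libraries (SD), and these neighbours differed by less than that spread. Each gene encodes 1 chain of the hexameric recognition molecule. The genes sit in a row on the minus strand of chromosome 4 (mm10), with C1qb at chr4:136880145-136886177, C1qc at chr4:136889802-136892914 and C1qa at chr4:136895916-136898844. The annotated genes are 3624 bases apart between C1qb and C1qc and 3001 bases apart between C1qc and C1qa, and each has 3 exons. Their transcripts share no stretch of 25 bases with one another, so reads of one chain are not readily counted for another.

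The start regions of C1qb and C1qc, and that of Itgam, another gene of microglia among the 9, are shown because they hold the letters GAGGAA, the core that the myeloid factor PU.1 is known to bind. RefSeq promoters of GRCm38.p6 (the build also called mm10) run from 250 bases before to 50 after the gene start, and were found for 6 of the 9 genes. Capitals mark GAGGAA or, on the other strand, TTCCTC.
C1qb, chr4:136886151-136886450, minus strand: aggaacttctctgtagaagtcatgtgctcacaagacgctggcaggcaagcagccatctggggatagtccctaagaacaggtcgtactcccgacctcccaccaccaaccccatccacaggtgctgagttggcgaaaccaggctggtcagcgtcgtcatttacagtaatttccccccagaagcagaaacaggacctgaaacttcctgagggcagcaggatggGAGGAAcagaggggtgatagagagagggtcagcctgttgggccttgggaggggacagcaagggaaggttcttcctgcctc
C1qc, chr4:136892865-136893164, minus strand: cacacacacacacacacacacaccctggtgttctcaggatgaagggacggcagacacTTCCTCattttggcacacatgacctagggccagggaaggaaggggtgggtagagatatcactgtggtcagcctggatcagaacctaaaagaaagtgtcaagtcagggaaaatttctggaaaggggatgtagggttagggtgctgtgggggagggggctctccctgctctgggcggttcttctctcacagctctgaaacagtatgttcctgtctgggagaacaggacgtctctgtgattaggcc
Itgam, chr7:128062390-128062689, plus strand: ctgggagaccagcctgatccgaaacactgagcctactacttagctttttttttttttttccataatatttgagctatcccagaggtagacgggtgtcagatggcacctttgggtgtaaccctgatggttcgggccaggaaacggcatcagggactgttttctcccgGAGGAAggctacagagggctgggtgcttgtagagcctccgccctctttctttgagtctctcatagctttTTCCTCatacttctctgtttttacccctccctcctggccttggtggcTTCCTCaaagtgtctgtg
The match begins at position -30 from the gene start in C1qb and at -193 in C1qc, and Itgam has matches at -84, -15 and 32. The windows of C3, C3ar1 and C5ar1 have no match. Of all 27025 promoters listed there, 28.3% hold at least 1 match on either strand, and 0.688% hold 3 or more, so a single match is common and is a description of these letters only.

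C1qa had 40.1, 40.4, 42.7 and 38.1 CPM in the KO libraries, 36.0, 38.4, 39.6 and 37.9 CPM in the MUT libraries, and 31.1, 33.7, 36.4 and 32.3 CPM in the WT libraries. All KO libraries lay above all WT libraries, and in MUT 3 of 4 did. The log2 fold change was 0.29 (SE 0.06) in KO against WT, a 1.22-fold difference with an edgeR adjusted p of 0.0499. In MUT against WT it was 0.22 (SE 0.06, edgeR adjusted p = 0.379). The KO call sits on the threshold: it was lost on leaving out any library other than WT replicate 1 or 3, with edgeR adjusted p-values of 0.0525 to 0.225. Among other alternatives it was lost with RLE size factors (edgeR adjusted p = 0.0503), without edgeR's robust prior (0.052) and with limma-voom (limma-voom adjusted p = 0.0589). The edgeR adjusted p was 0.0998 with replicate number as a block, 0.119 with the length trend removed and 0.161 without the 3 libraries high in choroid plexus markers. It was 0.163 with the 2 groups alone, 0.173 with the striatal level and 0.482 with age in the fit. The call was also lost among animals under 310 days, which leaves 1 WT library. The direction held in all 28 alternatives, with an unadjusted p of at most 0.00361 in KO and 0.0314 in MUT.

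C1qb, the B chain, had 42.8, 37.6, 39.1 and 37.3 CPM in KO, 39.0, 37.6, 41.1 and 42.5 CPM in MUT, and 29.4, 31.0, 37.4 and 34.6 CPM in WT. The 4 MUT libraries and 3 of the 4 KO libraries lay above every WT library, KO replicate 4 falling just below WT replicate 3. Fitted log2 fold changes were 0.27 (SE 0.07, edgeR adjusted p = 0.0895) in KO and 0.33 (SE 0.08, edgeR adjusted p = 0.310) in MUT against WT, and edgeR called neither. C1qb was called in KO against WT by DESeq2 (adjusted p = 0.0336) and with the microglia marker level in the edgeR fit (adjusted p = 0.0494). C1qc, the C chain, had 36.4, 33.8, 37.3 and 33.4 CPM in KO, 32.1, 34.9, 36.2 and 34.8 CPM in MUT, and 27.6, 29.8, 35.3 and 29.1 CPM in WT. WT replicate 3 stood among the null libraries, and the other 3 WT libraries were below all of them. Its log2 fold change was 0.23 (SE 0.07, edgeR adjusted p = 0.140) in KO and 0.22 (SE 0.08, edgeR adjusted p = 0.409) in MUT against WT. Without WT replicate 3, C1qb and C1qc were called in KO against WT, at edgeR adjusted p-values of 0.0449 and 0.0437. Without the 3 libraries high in choroid plexus markers, C1qc fell short even of an unadjusted p of 0.05 in KO (log2 fold change 0.16 and unadjusted p = 0.0567 in the edgeR fit across all genes, adjusted p = 0.358).

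The proportions of the chains overlapped between the groups. C1qa made up 33.1% to 35.7% of their summed RPKM in KO, 32.4% to 34.1% in MUT and 32.9% to 35.1% in WT. C1qb made up 33.0% to 36.0% in KO, 34.0% to 37.0% in MUT and 32.9% to 36.2% in WT, and C1qc made up 30.6% to 31.7% in KO, 30.3% to 31.8% in MUT and 30.7% to 32.7% in WT. After the group means were taken out, C1qa and C1qc correlated across the 12 libraries with a Pearson r of 0.93 (Spearman rho 0.88), C1qb and C1qc with 0.73 (rho 0.62) and C1qa and C1qb with 0.55 (rho 0.35), given as descriptions since the libraries' depth and tissue makeup enter every gene. Between C4b and the chains r was -0.11 for C1qa, 0.03 for C1qb and -0.10 for C1qc.

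Microglia markers were set beside the chains. The summed CPM of the 3 chains was 119, 112, 119 and 109 in KO, 107, 111, 117 and 115 in MUT, and 88.1, 94.5, 109 and 96.0 in WT. The 13 homeostatic microglia markers summed to 371 to 395 CPM in KO, 377 to 407 in MUT and 352 to 406 in WT, and these ranges overlap. None of the 13 was called in either null group against WT by edgeR, DESeq2 or limma-voom, 1 in KO and 0 in MUT had an unadjusted p under 0.05, and their median log2 fold change was -0.02 in KO and 0.07 in MUT. The ratio of the C1q sum to this sum was 0.302, 0.301, 0.308 and 0.279 in KO, 0.281, 0.295, 0.287 and 0.292 in MUT, and 0.251, 0.247, 0.273 and 0.237 in WT, and every KO and MUT library exceeded every WT library. With the mean level of the 13 markers as a term in the fit, the log2 fold changes in KO were 0.29 for C1qa, 0.27 for C1qb and 0.22 for C1qc, and in MUT 0.20, 0.29 and 0.19. In bulk tissue, more cells of a type and more RNA per cell cannot be told apart. Of 13 tested markers of disease-associated microglia, led by Apoe, 3 were called higher in KO and 0 in MUT (7 in each had an unadjusted p under 0.05), with medians of 0.23 and 0.30. Over all genes 0.144% were called higher in KO and 0 in MUT, and 17.6% and 10.9% had an unadjusted edgeR p under 0.05. DESeq2 called 6 in KO and 3 in MUT, and limma-voom 2 and 0. The 3 called were Ctss, a lysosomal cysteine protease, Tyrobp, the signalling adaptor of TREM2, and Lyz2, lysozyme. Of the 6 tested markers of border-associated macrophages, led by Stab1, of cells that also make C1q, none was called in either comparison by edgeR, DESeq2 or limma-voom (0 in KO and 2 in MUT had an unadjusted p under 0.05), with medians of -0.14 in KO and 0.42 in MUT. Their summed CPM was 29.4 to 33.7 in KO, 33.7 to 51.5 in MUT and 28.9 to 38.0 in WT. In MUT against KO all 6 were above 0, with a median log2 fold change of 0.88 and 0 called by edgeR. Of these, 5 had an unadjusted edgeR p under 0.05, against 5.67% of all genes. The part of these cells in the MUT values was not tested. Neutrophil and monocyte markers were near 0, at no more than 1.06 summed CPM for 8 markers.

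**Figure D3:**
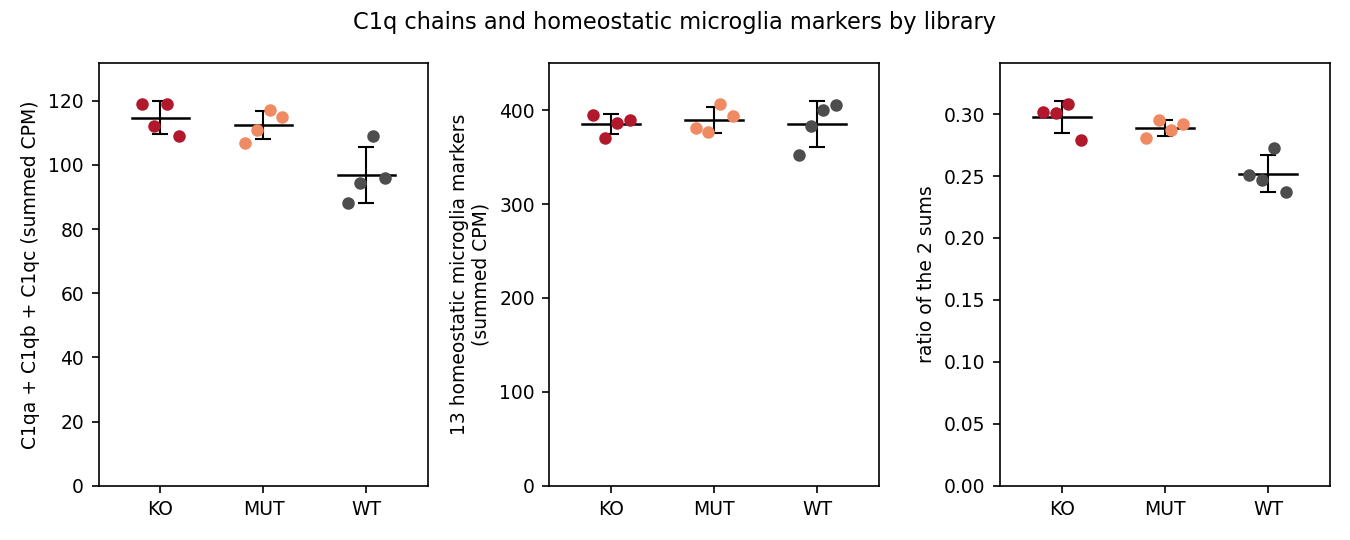
Summed CPM of C1qa, C1qb and C1qc (left), summed CPM of 13 homeostatic microglia markers (middle) and the ratio of the sums (right) in the 4 KO, 4 MUT and 4 WT libraries, with the mean and SD. The ratio runs from 0.279 to 0.308 in KO, 0.281 to 0.295 in MUT and 0.237 to 0.273 in WT.

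The gene whose pattern came closest to the mean standardised level of the 3 chains, over 12 libraries and 15127 genes searched, was Ctsd, the lysosomal protease cathepsin D, with a Pearson r of 0.94 and a Spearman rho of 0.88 (r = 0.84 with group means taken out). Ctsd had 343, 345, 370 and 335 CPM in KO, 339, 324, 340 and 343 CPM in MUT, and 271, 288, 334 and 308 CPM in WT. Like C1qc, it was highest among WT libraries in replicate 3. Cd68, a lysosomal glycoprotein of macrophages, followed at 0.91, Ftsj1 at 0.90, Arhgap45 at 0.90 and Tubg1, the gamma-tubulin gene, at 0.90. These were picked as the highest of many and carry no test.

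C4b was higher than in WT in every library of both null groups, and edgeR called the KO difference. It encodes complement C4, which the C1 proteases cleave, and lies at chr17:34728380-34743897 (mm10, minus strand) with 41 exons. C4b had 60.5, 50.2, 67.3 and 49.6 CPM in the KO libraries (56.9 ± 8.56, SD, n = 4), 52.4, 51.4, 62.9 and 47.8 CPM in the MUT libraries (53.6 ± 6.50), and 33.8, 24.1, 24.95 and 35.7 CPM in the WT libraries (29.6 ± 5.98). Every KO and every MUT library was above every WT library, with a gap from 35.7 to 47.8 CPM between the groups. The log2 fold change was 0.94 in KO against WT (SE 0.16, 95% interval 0.60 to 1.29), a 1.92-fold difference with an edgeR adjusted p of 0.0397. In MUT against WT it was 0.85 (SE 0.16, 95% interval 0.49 to 1.22), a 1.81-fold difference that edgeR did not call (adjusted p = 0.277) and DESeq2 did (adjusted p = 2.41e-04). The KO call was lost on leaving out any library other than WT replicates 1 and 3 or KO replicate 4, at edgeR adjusted p-values of 0.0512 to 0.161, and the MUT difference was called without WT replicate 1, at 0.0184. The unadjusted p stayed under 0.05 in all 28 alternatives in both comparisons, at most 0.0153 in KO and 0.0170 in MUT.

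Age and tissue makeup were checked on C4b because they differ between the groups. WT replicate 1 was the 287-day WT animal and the only WT library labelled female. At 284 summed CPM it was also the only WT library within the striatal marker range of the null groups. The age term, the subset under 310 days and the striatal term therefore all lean on WT replicate 1. They do not count as independent checks, and age and labelled sex cannot be told apart within WT. The 287-day WT library had 33.8 CPM and the 3 WT libraries of 375 days had 24.1, 24.95 and 35.7 CPM, so its value lay within theirs. Among animals under 310 days, which leaves that 1 WT library with its spread taken from the other groups, the log2 fold change was 0.70 in KO and 0.64 in MUT (edgeR unadjusted p of 0.0101 and 0.0142, adjusted p of 0.418 and 0.907). With the striatal marker level as a term it was 0.996 in KO and 0.911 in MUT, and without the 3 libraries high in choroid plexus markers 0.95 and 0.98. The KO call was lost in both settings, at edgeR adjusted p-values of 0.197 and 0.108, and also with age in the fit (log2 value 0.831, adjusted p = 0.53). It was likewise lost with the 2 groups alone (edgeR adjusted p = 0.147), with replicate number as a block (0.103) and without a filter on low counts (0.0525).

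C4b has a close copy, C4a, and the authors' counting could divide reads between them. Their transcripts are 96.1% identical, at 5160 of 5367 aligned bases (GENCODE M21), and 54.5% of the 25-base stretches, 35.2% of the 50-base stretches and 16.5% of the 100-base stretches of C4b occur unchanged in C4a. The 60 bases where they differ most, bases 2761 to 2820 of the C4b transcript and 2755 to 2814 of the C4a transcript, are shown because they tell the copies apart, with the 13 differing bases in capitals.
C4b: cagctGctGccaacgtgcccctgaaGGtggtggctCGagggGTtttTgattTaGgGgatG
C4a: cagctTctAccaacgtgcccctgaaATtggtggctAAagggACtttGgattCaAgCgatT
Of the reads counted for either copy, C4b took 91.5%, 91.6%, 95.7% and 92.2% in KO, 93.6%, 89.4%, 92.1% and 92.1% in MUT, and 88.5%, 88.5%, 91.3% and 91.6% in WT. The widest exact 95% binomial interval, which covers counting error only, was 85.4% to 91.2% in WT replicate 2. C4a itself had 4.37 ± 1.06 CPM in KO, 4.78 ± 1.16 in MUT and 3.29 ± 0.84 in WT (SD, n = 4 each), with log2 fold changes of 0.42 (edgeR adjusted p = 0.384) and 0.58 (edgeR adjusted p = 0.438) against WT. Since the counting rule for shared reads is not given in the sources used here, the value of each copy is uncertain, while C4b took at least 88.5% of the reads of both in every library.

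The gene most like C4b over the 12 libraries was Gfap, the intermediate filament of astrocytes, which rises in reactive gliosis. It had a Pearson r of 0.96 and a Spearman rho of 0.94 with C4b, and r = 0.87 once the group means were taken out. Gfap was picked as the highest of 15127 genes in these same libraries, so these values carry no test. Gfap had 263, 193, 262 and 205 CPM in KO, 255, 250, 303 and 216 CPM in MUT, and 154, 81.7, 74.8 and 110 CPM in WT. KO replicates 1 and 3 and MUT replicate 3 were high in both genes. Gfap's log2 fold change was 1.11 in KO and 1.23 in MUT against WT, and neither passed the threshold (edgeR adjusted p = 0.0655 and 0.277). Clu followed with an r of 0.95, then Elmod3 at 0.95, Ctss at 0.94 and Dsp, the desmosomal protein desmoplakin, at 0.93. Over the whole list of 12 reactive astrocyte markers, which Gfap leads, 9 were tested and none was called in either null group by edgeR (1 in KO and 2 in MUT had an unadjusted p under 0.05). DESeq2 called 1 of them, Gfap, in both, and limma-voom called Gfap in KO. Their summed CPM was 259 to 342 in KO, 288 to 392 in MUT and 147 to 220 in WT, while their median log2 fold change was -0.01 in KO and 0.27 in MUT. Serpina3n, a protease inhibitor of reactive astrocytes, was at -0.01 in KO and 0.27 in MUT against WT (edgeR adjusted p = 0.987 and 0.616). General astrocyte markers, led by Slc1a2, had medians of -0.05 in KO and -0.02 in MUT, with none of 9 called by edgeR, DESeq2 or limma-voom (3 in KO and 0 in MUT had an unadjusted p under 0.05). Oligodendrocyte markers, led by Mbp, were above 0 for all 8 in KO and for 7 of 8 in MUT, with medians of 0.31 and 0.17, none of them called by edgeR (7 in KO and 1 in MUT had an unadjusted p under 0.05) and 3 of them by DESeq2 in KO. Their part in the C4b values was not tested.

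**Figure D4:**
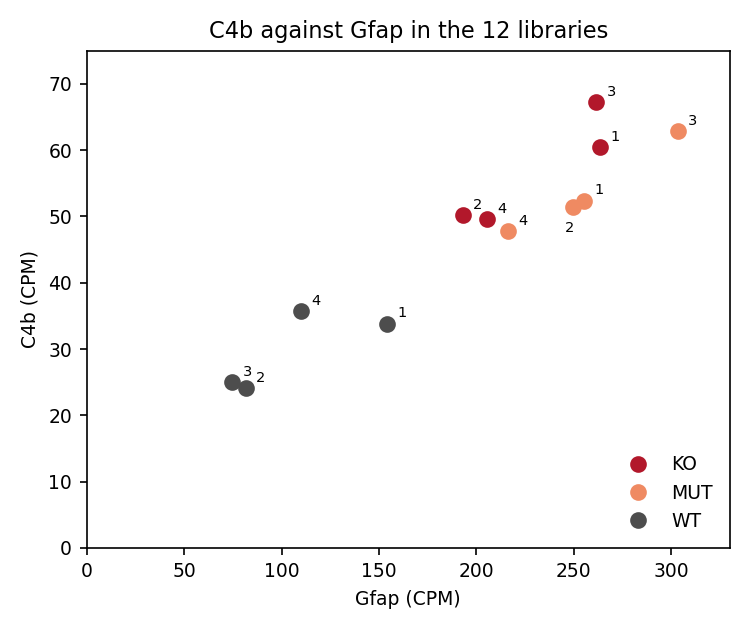
C4b CPM (y axis) against Gfap CPM (x axis) in the 12 libraries, numbered by replicate, both axes starting at 0. KO and MUT libraries lie at 193 to 303 CPM of Gfap and 47.8 to 67.3 CPM of C4b, and WT libraries at 74.8 to 154 CPM of Gfap and 24.1 to 35.7 CPM of C4b.

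C3, the component at which all activation routes meet, was the least abundant of the 9 per length at 0.12 ± 0.08 RPKM over the 12 libraries. It lies at chr17:57203973-57228136 (mm10, minus strand, 41 exons). Its counts were 7, 6, 22 and 8 reads in KO, 17, 7, 20 and 7 reads in MUT, and 4, 9, 5 and 22 reads in WT, which is 0.31 to 1.22, 0.37 to 1.15 and 0.22 to 1.31 CPM. The highest library of each group was of the same height, and the groups overlapped throughout. The log2 fold change was 0.16 in KO (95% interval -1.303 to 1.629) and 0.44 in MUT (-1.05 to 1.93) against WT. Both intervals hold a 2-fold difference in either direction. The value in KO against WT turned to -0.45 without KO replicate 3 and 0.86 without WT replicate 4. With age in the fit, with the striatal marker level and among animals under 310 days it was 2.06, 1.55 and 1.42 in KO and 2.15, 1.97 and 1.66 in MUT against WT, none of them called (lowest edgeR adjusted p = 0.486 in KO and 0.606 in MUT over all alternatives). KO replicate 3 and WT replicate 4 are both among the libraries high in choroid plexus markers. MUT replicate 3, the highest MUT library for C3 at 20 reads, had 22.1 summed CPM of these markers. MUT replicate 1, at 17 reads of C3, had 1430. The part of choroid plexus RNA in the C3 counts was not tested. The genes closest to C3 were 1700063D05Rik at a Pearson r of 0.92, Klk6, a serine protease of oligodendrocytes, at 0.89, Micall1 at 0.89, Agtr2, an angiotensin receptor, at 0.89, and Enpp6, a marker of newly formed oligodendrocytes, at 0.88, which rest on few reads of C3.

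C3ar1, the receptor of the C3a fragment, had 2.68, 2.41, 3.16 and 2.68 CPM in KO, 3.10, 2.22, 2.75 and 2.80 CPM in MUT, and 1.38, 1.95, 2.12 and 2.63 CPM in WT. In each null group 3 of 4 libraries were above all WT libraries, WT replicate 4 being the highest of its group. Relative to WT, C3ar1 was fitted 1.39-fold higher in KO (log2 value 0.47, SE 0.21; edgeR adjusted p = 0.266) and 1.40-fold higher in MUT (0.49, SE 0.22; edgeR adjusted p = 0.459), and neither was called. These values grew by over 1.5 times with the striatal marker level in the fit (0.84 in KO and 0.87 in MUT), with age in the fit (1.15 and 1.06) and among animals under 310 days (1.04 and 1.0), still without a call, and shrank to 0.24 and 0.21 without WT replicate 1, the lowest library. The gene lies at chr6:122847140-122856157 (mm10, minus strand).

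C5ar1, the receptor of C5a, was close to the limit of detection at 10 to 21 reads a library. It had 0.998, 0.68, 0.67 and 1.06 CPM in KO, 1.02, 0.74, 0.80 and 0.97 CPM in MUT, and 0.66, 0.56, 0.99 and 0.72 CPM in WT. The groups overlapped, and the log2 fold change was 0.21 in KO (95% interval -0.39 to 0.81) and 0.26 in MUT (-0.39 to 0.90) against WT. The values were 0.602 in KO and 0.589 in MUT with age in the fit, 0.413 and 0.44 among animals under 310 days, and ran from 0.079 to 0.389 in KO and 0.143 to 0.421 in MUT on leaving out 1 library (lowest without KO replicate 1 and WT replicate 1, highest without WT replicate 3), none of them called. It lies at chr7:16246743-16259540 (mm10, minus strand).

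Itgam, the alpha chain of CR3 (CD11b) and a general marker of microglia and myeloid cells, showed no step of the kind seen for the C1q chains. It had 18.5, 18.6, 18.7 and 20.5 CPM in KO, 15.9, 19.2, 20.1 and 19.8 CPM in MUT, and 16.5, 20.5, 20.9 and 22.9 CPM in WT. The WT range enclosed every KO library and all but the lowest MUT library. Its log2 fold change was -0.04 in KO (95% interval -0.26 to 0.17) and -0.05 in MUT (-0.28 to 0.18) against WT. In this main fit, which has no age term, the intervals leave out a rise as large as the 0.29 fitted for C1qa in KO. The sign turned positive with age or the striatal level in the fit, at 0.19 and 0.09 in KO and 0.15 and 0.08 in MUT, and among animals under 310 days at 0.21 and 0.18. Whether a rise of that size is left out in these settings was not tested. Itgb2, which encodes the beta chain of CR3, was at 0.22 in KO (edgeR adjusted p = 0.451) and 0.34 in MUT (edgeR adjusted p = 0.436) and was not called. Itgam lies at chr7:128062640-128118491 (mm10, plus strand, 30 exons) and averaged 4.13 ± 0.41 RPKM.

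Serping1, the inhibitor of C1r and C1s, had 3.68, 3.15, 6.71 and 2.96 CPM in KO, 11.7, 3.70, 4.47 and 4.92 CPM in MUT, and 3.85, 3.84, 5.44 and 5.31 CPM in WT. One library stood out in each null group, MUT replicate 1 and KO replicate 3, and the rest of the KO libraries were below all WT libraries. Set against WT, the log2 value was -0.26 (SE 0.40) in KO and 0.26 (SE 0.42) in MUT, with edgeR adjusted p-values of 0.784 in KO and 0.849 in MUT. The high libraries were those with the most choroid plexus and meningeal RNA: the 10 meningeal fibroblast markers, led by Igf2, summed to 182 CPM in KO replicate 3 and 276 CPM in MUT replicate 1, against 77.7 to 139 CPM in the other 10 libraries. Their part in the Serping1 values was not tested, and the list's median log2 fold change was 0.07 in KO and 0.33 in MUT against WT. Without KO replicate 3, MUT replicate 1 and WT replicate 4 the values were -0.42 in KO (edgeR unadjusted p = 0.0420, adjusted p = 0.320) and 0.05 in MUT. Without MUT replicate 1 alone the MUT value was -0.12. With age, with the striatal marker level and among animals under 310 days it was 0.619, 0.243 and 0.35 in KO and 0.986, 0.789 and 0.81 in MUT, without a call. Serping1 lies at chr2:84765360-84775429 (mm10, minus strand) and averaged 2.733 ± 1.299 RPKM. Vascular markers were read as well, and none was called in either null group by edgeR, DESeq2 or limma-voom: the 8 endothelial markers, led by Flt1, had medians of -0.19 in KO and -0.03 in MUT (1 unadjusted p under 0.05 in each), and the 7 markers of pericytes and smooth muscle, led by Rgs5, medians of -0.29 and -0.01 (2 in KO and 0 in MUT).

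Ordered by RPKM, the C1q chains were followed by C4b at 8.66 ± 2.64, Itgam at 4.13 ± 0.41, Serping1 at 2.733 ± 1.299, C3ar1 at 0.58 ± 0.12, C5ar1 at 0.32 ± 0.07 and C3 at 0.12 ± 0.08 (SD over 12 libraries). From C4b down, neighbours in this order lay further apart than the SD of the lower of them. The precision differed as well: the fitted biological coefficient of variation was 5.66% to 7.12% for the C1q chains, 9.15% for Itgam, 14.8% for C4b, 35.3% for Serping1 and 52.8% for C3, against a median of 8.39% over all genes.

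No difference between MUT and KO was detected in the 9 genes. None was called by edgeR, none had an unadjusted p under 0.05, and DESeq2 and limma-voom called 0, while over all genes 0.00654% were called and 5.67% had an unadjusted p under 0.05. None of the 9 had groups that did not overlap, as against 3.37% of all genes with MUT wholly above KO and 1.85% wholly below. The median log2 fold change of the 9 in MUT against KO was 0.02, against 0.00 over all genes. For C4b, MUT averaged 53.6 CPM and KO 56.9 CPM, a log2 fold change of -0.09 with a 95% interval of -0.42 to 0.25. For the C1q chains the intervals were -0.19 to 0.05 for C1qa, -0.10 to 0.21 for C1qb and -0.17 to 0.15 for C1qc. For each of these 4 genes the interval leaves out a difference between MUT and KO as large as the one fitted for the same gene between KO and WT. The widest intervals were those of C3, from -1.08 to 1.63, and Serping1, from -0.32 to 1.37, which bound little. Without the 3 libraries high in choroid plexus markers, Serping1 was at 0.477 in MUT against KO. It was not called there (edgeR unadjusted p = 0.0319, adjusted p = 0.985). Markers of border-associated macrophages had a median log2 fold change of 0.88 in MUT against KO, and their part in these values was not tested.

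Beyond the 9 genes, 50 further complement genes were listed by role and 36 of them passed the filter. None was called by edgeR in KO against WT, DESeq2 called 1 (Clu) and limma-voom called 0. An unadjusted edgeR p under 0.05 was found for 6 of the 36, close to the share of 17.6% over all genes. Their median log2 fold change was -0.06 with 15 above 0 and 21 below. In MUT against WT none was called by edgeR, DESeq2 or limma-voom, 5 had an unadjusted edgeR p under 0.05 (10.9% of all genes did), and the median was -0.01. In MUT against KO none was called by any of these, 1 had an unadjusted edgeR p under 0.05 (5.67% of all genes did), and the median was 0.05. Of the later components, only 1 of 3 alternative pathway genes and 2 of 7 terminal components had enough reads to be tested.

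The 8 tested genes of classical and lectin initiation had a median log2 fold change of -0.02 in KO and 0.26 in MUT against WT. Masp1, the lectin pathway protease and the most abundant of these 8 per length, had 2.84 ± 0.28 RPKM in KO, 3.004 ± 0.105 in MUT and 3.07 ± 0.47 in WT. Cfp, properdin, which stabilises the alternative pathway enzyme, had 12.97 ± 1.71 RPKM in KO, 14.8 ± 1.01 in MUT and 12.2 ± 1.75 in WT, with log2 fold changes of 0.06 and 0.22 against WT. C7, a part of the membrane attack complex, had 2.36, 3.57, 2.55 and 4.13 CPM in KO, 2.03, 2.54, 1.61 and 3.53 CPM in MUT, and 3.03, 1.17, 0.89 and 1.13 CPM in WT. Its log2 fold change was 0.94 in KO (edgeR adjusted p = 0.131) and 0.33 in MUT (edgeR adjusted p = 0.717), and WT replicate 1 lay among the null libraries.

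Clu, clusterin, an extracellular chaperone that blocks the membrane attack complex, had the highest RPKM of the complement genes tested. Both null groups lay wholly above WT for Clu, as they did for 4.29% of all genes in KO and 3.37% in MUT. Clu was the only 1 of the 36 to do so in either comparison. In KO, Csmd2 lay wholly below WT, as 4.82% of all genes did. Clu had 720, 712, 763 and 720 CPM in KO, 732, 702, 711 and 697 CPM in MUT, and 670, 604, 627 and 642 CPM in WT. Against WT the fitted log2 values were 0.18 (SE 0.04) in KO, at an edgeR adjusted p of 0.0655, and 0.14 (SE 0.04) in MUT, at 0.394. Clu was also the second gene most like C4b. The membrane regulators, which hold complement off cell surfaces and include the Csmd family and Susd4, were below 0 for 6 of 8 in both KO and MUT, with medians of -0.12 and -0.11, and none was called by edgeR (3 in KO and 1 in MUT had an unadjusted p under 0.05). Susd4, the most abundant of them per length, had 101, 93.4, 89.9 and 98.8 CPM in KO, 83.1, 97.1, 102 and 93.6 CPM in MUT, and 96.3, 117, 124 and 108 CPM in WT. Its log2 fold change was -0.18 in KO (edgeR adjusted p = 0.202) and -0.17 in MUT (edgeR adjusted p = 0.436), with WT replicate 1, the 287-day animal, within the null range. Calr, the chaperone calreticulin and the most abundant of the other receptors, was at -0.03 in KO and 0.03 in MUT. Sez6l2, the most abundant of the neuronal complement-binding proteins, was at -0.01 in KO and -0.05 in MUT, and none of the 7 neuronal genes had an unadjusted p under 0.05.

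**Figure D5:**
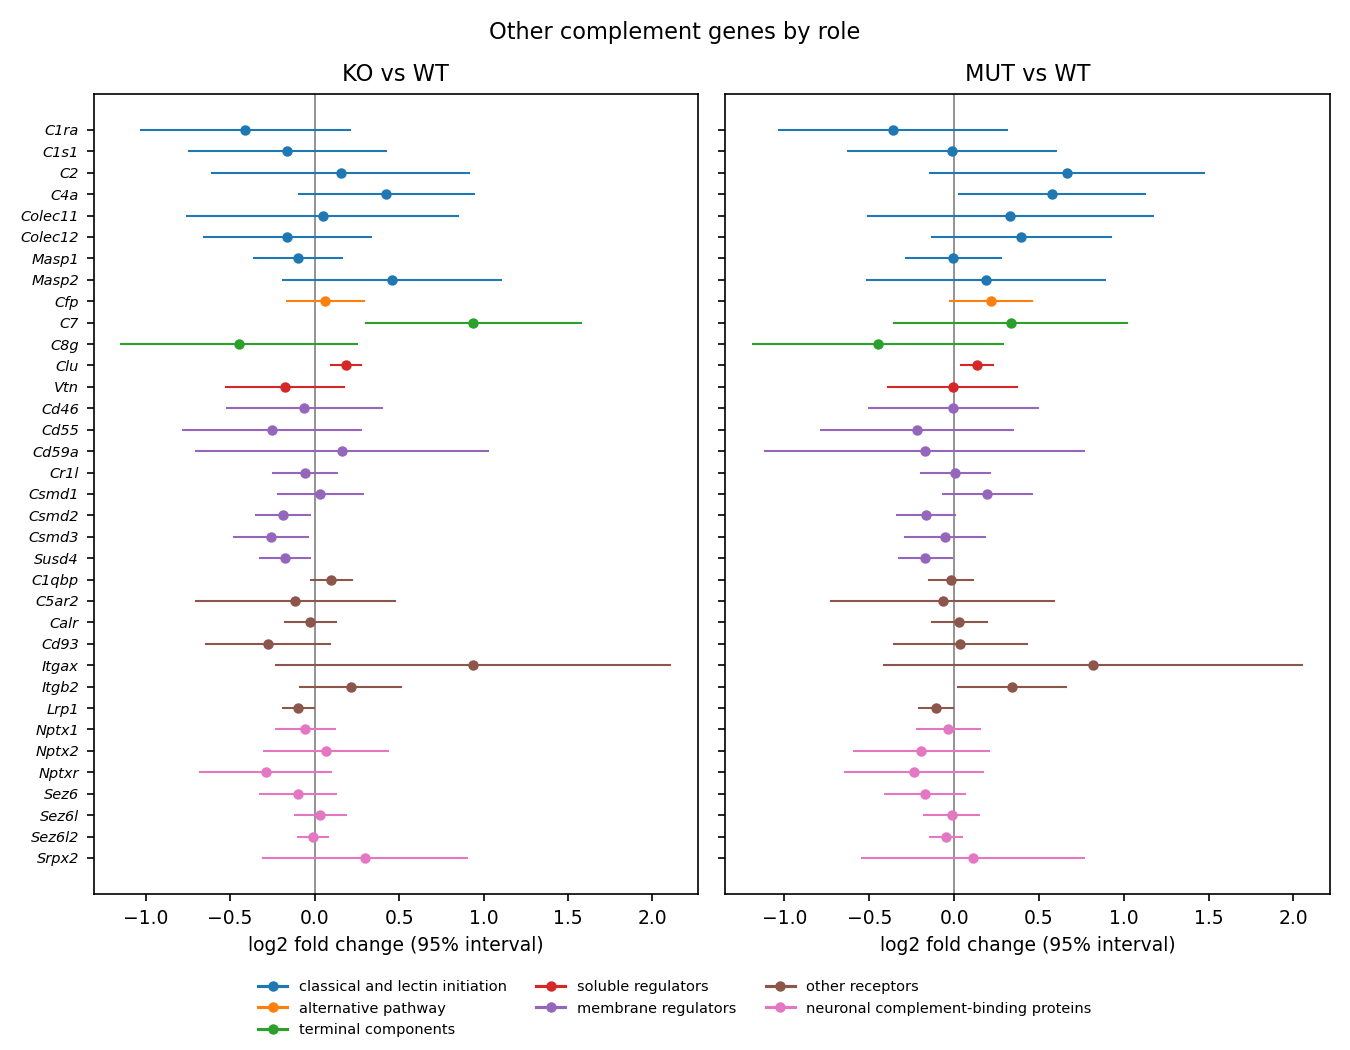
Log2 fold changes (x axis, with 95% intervals) of tested complement genes outside the 9, coloured by role, in KO against WT (left) and MUT against WT (right). None is called, and the narrow interval of Clu above 0 spans 0.10 to 0.27 in KO and 0.04 to 0.23 in MUT.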

How the data were processed

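Whole-cortex RNA was sequenced from directional libraries, per the labels' protocols. The authors deposited unnormalized gene counts of all 12 samples in 1 table, with exon lengths and mm10 coordinates. R 4.1.2 and DESeq2 1.34.0 are named in the submitters' processing notes without a role, and which aligner, counting rule and strand option were used is not given in the sources used here. Columns were matched to samples by title. From these counts, edgeR 4.0.16 in R 4.3.3 fitted all 12 libraries with group and labelled sex (TMM scaling, filterByExpr with a minimum count of 10 and a minimum total of 15, robust dispersion and quasi-likelihood prior, 8 residual degrees of freedom), and adjusted p-values by Benjamini-Hochberg over the 15298 genes kept. The robust prior was chosen after the data were seen. The fits were first tested on simulated data. DESeq2 1.42.0, limma-voom (limma 3.58.1) and other normalizations, filters, covariates and library subsets were run as 28 alternatives. Likeness used log2 CPM with a prior count of 2. Of the 27179 genes, 1049 have no symbol and were not named.

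The members, gene lists and tests were chosen with earlier results of these data known. All 9 genes are named in every comparison. Of the other complement genes, those called and the highest per role by RPKM are named, of marker lists the leading gene by CPM (some items are not reported here), and for C1q, C4b and C3 the 5 most alike genes. C4a, Itgb2, Serpina3n, Ctss, Tyrobp, Lyz2 and the genes with a single high or low library (closing section) were named after their values were seen. No 2 libraries agreed within sampling noise (over 66 pairs, chi-square divided by its degrees of freedom was at least 3.55). The labels do not say whether libraries came from separate animals beyond age and sex, so p-values rest on the spread between samples, which may be technical.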

Additional observations from a re-analysis of the deposited data

Results flagged for a closer look

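In groups of 4 libraries, a library was marked when its gap to the nearest other library, divided by the range of the group, was above Dixon's 95% critical value. Chance marks about 1 in 20 groups. Of the 27 groups of the 9 genes, 3 were marked: C3 in KO replicate 3 with a ratio of 0.854 (1.22 CPM), Itgam in KO replicate 4 with 0.898 (20.5 CPM) and Serping1 in MUT replicate 1 with 0.847 (11.7 CPM), each the highest of its group. Of 105 groups of other complement genes, 9 were marked. KO replicate 3 was the highest KO library for Itgax (0.972) and Clu (0.851), and KO replicate 4 for Csmd1 (0.882). MUT replicate 1 was the highest MUT library for Colec12 (0.857). WT replicate 1 was the highest WT library for Cfp (0.898), Csmd1 (0.881) and C7 (0.869), and WT replicate 2 for Csmd2 (0.859), while WT replicate 4 was the lowest for Lrp1 (0.868). KO replicate 3 and MUT replicate 1 are the libraries with the most choroid plexus and meningeal RNA, whose part in these values was not tested.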

How the results depend on the processing

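Among the 744 recomputed fold changes of the 9 genes, 650 kept direction and call, 36 lost a call, 6 gained one and 52 changed sign. C1qa, C1qb, C1qc, C4b, C3ar1 and C5ar1 kept their direction in KO and MUT against WT in every alternative that could be fitted. C3 could not be tested in 3 of the 28 alternatives and C5ar1 in 1. The lost calls were those of C1qa and C4b in KO against WT.

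Genes called in KO against WT numbered 75 and became 647 with DESeq2, 294 without sex, 524 with the microglia level, 18 with a length trend removed, 11 under 310 days, 3 with the 2 groups alone, 2 with age, 2 with the replicate block, 2 without the libraries high in choroid plexus markers and 1 with the striatal level. The 9 genes' count of 2 became 3 (C1qa, C1qb and C4b) with DESeq2 and with the microglia level, 1 with RLE size factors, no filter, limma-voom, the length trend removed or no robust prior (added after seeing the data), and 0 with age, the replicate block, the striatal level, animals under 310 days, the 2 groups alone or without the libraries high in choroid plexus markers. The other complement genes' 0 became 1 with DESeq2, without sex and with the microglia level. In MUT against WT, 2 genes were called and became 52 with DESeq2, 6 without sex and 94 with the microglia level, and the 9 genes' 0 became 1 with DESeq2. In MUT against KO, 1 was called and became 15 with DESeq2, 2 with age, 37 under 310 days and 39 with the 2 groups alone. Leaving out 1 library at a time gave 1 to 1620 genes in KO against WT, 2 to 1030 in MUT against WT and 1 to 18 in MUT against KO, 0 to 4 and 0 to 1 of the 9 genes in KO and MUT against WT, and 0 to 2 other complement genes in each. The highest of these counts against WT, 1620 in KO and 1030 in MUT, came without WT replicate 1. The settings with age, under 310 days and with the striatal level also lean on that library. The cause of these changes was not tested.

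Replicate numbers did not pair the samples: deviations of same-numbered libraries correlated at -0.377 to 0.289, and 2 of 12 libraries correlated best with their own number.

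Signs changed for uncalled values only. In KO against WT, Itgam became 0.192 with age, 0.0864 with the striatal level and 0.208 under 310 days, and Serping1 0.619, 0.243 and 0.35 in the same settings. In MUT against WT, Itgam became 0.152, 0.0808 and 0.179 in them, 0.0252 with the 2 groups alone and 0.0534 without the choroid-high libraries. In MUT against KO, C3ar1 became -0.0074 without sex, -0.0818 with age, -0.117 with the microglia level, -0.0315 under 310 days, -0.0331 with the 2 groups alone and -0.00375 with the length trend removed. C5ar1 became -0.0131 with age, C3 -0.134 with the microglia level and C1qc 0.0413 with the length trend removed. Without the choroid-high libraries, C1qa became 0.000931, C1qc 0.0718, C4b 0.0241, C5ar1 -0.152 and Itgam 0.0556. Leaving out 1 library at a time gave, in KO against WT, -0.448 to 0.863 for C3 and -0.157 to 0.00635 for Itgam, and in MUT against WT -0.222 to 1.11 for C3, -0.185 to 0.00441 for Itgam and -0.122 to 0.442 for Serping1. In MUT against KO it gave -0.191 to 1.17 for C3, -0.0609 to 0.147 for C3ar1, -0.247 to 0.0344 for C4b, -0.093 to 0.221 for C5ar1, -0.0393 to 0.0738 for Itgam and -0.041 to 0.0466 for C1qc.

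Depth limits C3, at 4 to 22 reads a library, and C5ar1, at 10 to 21.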
